A study of Arabidopsis thaliana with 6 samples.

Results

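The NB-ARC immune receptor genes of Arabidopsis thaliana were described in developing seeds of wild type and of the mutant lines ar21 and i4g1. Members were the rows of the deposited expression table whose gene annotation contains NB-ARC, NBS-LRR or TIR-NBS, ignoring case. The rule matched 151 of 34001 merged loci, and AT5G05400 holds 2 of those rows, so the rows name 150 distinct loci. Of the 151 rows, 53 had a mean of at least 10 over the 6 libraries and are described and tested here, 79 had reads but a lower mean, and 19 were at 0 in every library. The words of the annotation, and no measured difference, chose the members. By that text the 53 genes comprised 30 of the 87 TIR-NBS-LRR genes, 13 of the 25 CC-NBS-LRR genes, 2 of the 13 TIR-NBS genes, 8 of the 24 NB-ARC genes with no stated N-terminus and 0 of the 2 other NBS-LRR genes.

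All samples were seeds of strain Columbia-0, dissected on dry ice from tagged siliques 13 days after flowering and kept as pools of seeds. Each of the 3 lines (WT, ar21 and i4g1) had 2 biological replicates, 1 library each. The labels do not say what ar21 and i4g1 carry. From knowledge of the study and not from the labels, both are taken to be mutants of eIFiso4G1 (AT5G57870), which encodes a scaffold of the translation initiation complex. The level of AT5G57870 was 368 and 454 normalised counts in WT, 115 and 123 in ar21, and 24.5 and 45.6 in i4g1, lower in every mutant library than in either WT library.

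NB-ARC proteins are the intracellular immune receptors of plants. A nucleotide-binding switch, the NB-ARC domain, is followed by leucine-rich repeats that help recognise a pathogen effector, and a TIR or coiled-coil (CC) domain at the N-terminus starts the response. Receptors with a TIR domain act through EDS1 and through the helper receptors ADR1 and NRG1. Too much receptor costs growth and can start autoimmunity, so receptor transcripts and proteins are held low by small RNAs, F-box proteins and chaperones.

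The values are normalised counts, that is, reads divided by 1 size factor per library. Total reads per library ran from 3418773 to 8435759. The 53 genes had 2142 and 930 reads in WT, 1911 and 2640 in ar21, and 1843 and 4914 in i4g1, in the order of replicates 1 and 2. Low genes therefore rest on few reads, most of all in WT replicate 2, where 1 read is worth 2.80 normalised counts. The nuclear 18S rRNA locus took 40.8% and 60.7% of reads in WT, 30.0% and 19.8% in ar21 and 11.5% and 3.90% in i4g1, so library composition moved with the line. With all libraries rescaled to the same sum over nuclear loci other than 18S rRNA, limma called 6 of the 53 genes lower and 0 higher in ar21, against 7 and 0 with the deposited scaling, and 11 lower and 1 higher in i4g1, against 9 and 2. Seed markers were abundant in all 6 libraries: the lowest values were 20607 for the vicilin PAP85, 74521 for the oleosin OLEO1 and 81308 for EPR1 of the endosperm. The cruciferin CRA1 lay only between 10.4 and 47.6.

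The part of the genes that defines them is the P-loop of the NB-ARC domain, which holds the nucleotide. Its coding sequence is shown for the genes that the results turn on. Identity over this short stretch does not rank the copies, so identities over longer stretches are given after it. A P-loop pattern was found in 51 of the 53 coding sequences, all except RLM3 and AT5G66900. Each window of 60 bases below was read from the RefSeq TAIR10.1 genome, 5′ to 3′ on the coding strand, with the 24 bases of the P-loop in capitals.
RPP1 (AT3G44480), chr3:16094890-16094949, - strand: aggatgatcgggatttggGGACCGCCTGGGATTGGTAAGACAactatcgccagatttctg
AT3G44670, chr3:16218348-16218407, + strand: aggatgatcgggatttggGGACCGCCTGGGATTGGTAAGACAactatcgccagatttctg
AT5G22690, chr5:7542058-7542117, + strand: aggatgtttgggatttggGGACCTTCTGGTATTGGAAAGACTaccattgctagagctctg
RPP8L3 (AT5G35450), chr5:13668358-13668417, + strand: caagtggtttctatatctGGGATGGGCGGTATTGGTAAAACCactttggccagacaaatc
RPP8 (AT5G43470), chr5:17466044-17466103, - strand: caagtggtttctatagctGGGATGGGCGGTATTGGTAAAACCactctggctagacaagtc
RPP8L4 (AT5G48620), chr5:19717961-19718020, + strand: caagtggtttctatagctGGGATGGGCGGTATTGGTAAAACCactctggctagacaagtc
AT1G58602, chr1:21760713-21760772, + strand: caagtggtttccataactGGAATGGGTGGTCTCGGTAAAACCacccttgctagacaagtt

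RPP1 and AT3G44670 had the same 60 bases, as had RPP8 and RPP8L4. Counting from 1 at the 5′ end of the window, RPP8L3 differed from RPP8 at 4 positions (G16T, C46T, T51C and G58A), none of them in the P-loop. Over longer stretches, RPP8 and RPP8L4 were 95.1% identical in 2729 aligned coding bases, RPP8 and RPP8L3 88.2%, and RPP1 and AT3G44670 90.5% in 2459 bases. AT3G44630, whose window differs from that of RPP1 at 1 position (G6A), was 97.2% identical to RPP1 in 1697 bases. The share of a gene's exonic stretches of 50 bases that occur once in the genome was 55.7% for RPP1, 63.4% for AT3G44670, 80.2% for RPP8, 86.4% for RPP8L4, 97.1% for RPP8L3, 85.4% for AT1G58602, and 100% for AT5G22690. Of the 53 genes, 35 reached 90%. The lowest was RF9 (AT1G58848) at 0.708%. The sources used here do not say how reads that match several copies were treated, so the level of each copy in these families is uncertain.

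The genes lay on chromosomes 1 (14 genes), 3 (7), 4 (11) and 5 (21), mostly in clusters: 43 of the 53 had another matched locus within 100 kb. On the TAIR10.1 annotation 22 overlapped another gene, 14 of them a gene on the opposite strand. The library kit named in the labels does not mark the strand, so reads of such pairs cannot be told apart.

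Levels differed widely among the 53 genes. Per kb of exon, the mean over the 6 libraries was highest for RPP1 (44.6 normalised counts per kb), a TIR receptor known for recognising the downy mildew effector ATR1. Its neighbour AT3G44670 followed at 40.8 per kb, then RPP8L3, a CC receptor of the RPP8 family, at 23.8 and AT4G23440, which has a TIR domain and no repeats in its annotation, at 20.4. AT5G46510 (VICTL) lay at 17.8, SNC1 (a TIR receptor whose gain-of-function allele causes autoimmunity) at 17.4, AT5G40910 at 16.6, RPP8L4 at 15.6, the helper receptor ADR1 at 15.6 and AT5G22690 at 14.7 per kb. At the other end, just above the limit of 10, were AT5G66900 with a mean of 11.8, AT5G17680 with 11.4, AT3G14460 with 10.7 and RPP8L2 with 10.07 normalised counts. Just under it were AT3G44400 with 9.87, AT5G46450 with 9.62 and AT1G12290 with 9.47.

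**Figure D1:**
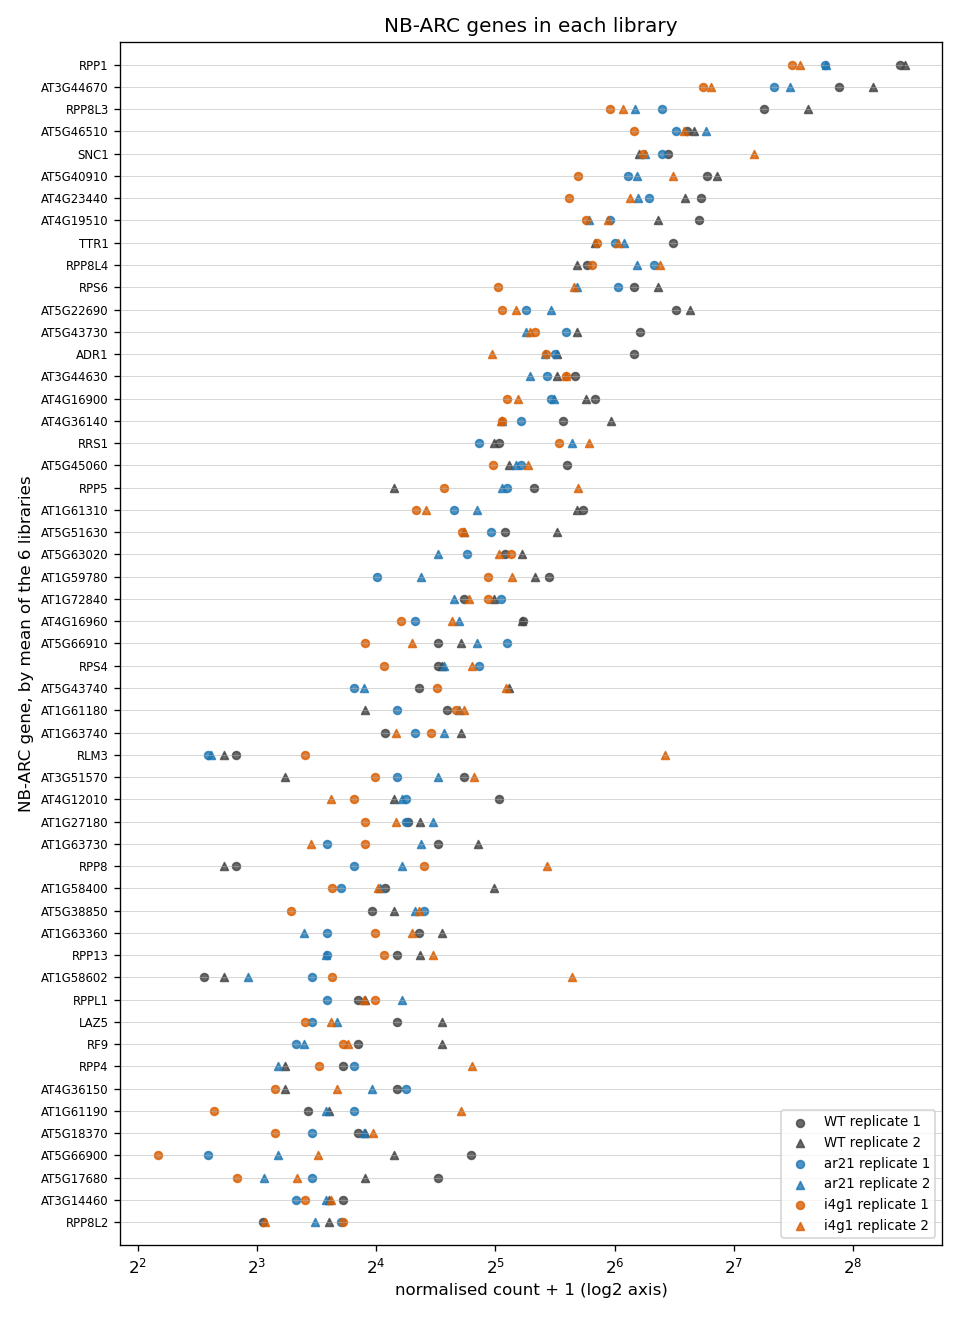
Normalised counts plus 1 (log2 axis) of the 53 NB-ARC genes in each library, ordered by mean. Circles are replicate 1 and triangles replicate 2. In RPP1, AT3G44670 and RPP8L3 both WT libraries lie above all 4 mutant libraries, and RLM3, RPP8 and AT1G58602 stand out by i4g1 replicate 2.

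Both mutant lines had mostly lower levels of the NB-ARC genes than WT, and the 3 with the highest levels per kb, RPP1, AT3G44670 and RPP8L3, fell in both. The summed level of the 53 genes was 2611 and 2604 normalised counts in WT, 1920.1 and 1932 in ar21, and 1611 and 2132 in i4g1. Both WT sums lay above all 4 mutant sums, and the i4g1 libraries lay furthest apart. All 151 matched rows together, the genes below the limit included, took 0.0788% and 0.0766% of reads without 18S rRNA in WT. That share was 0.0599% and 0.0601% in ar21, and 0.0476% and 0.0729% in i4g1. In bulk seeds, fewer cells that express a gene and less of its RNA per cell cannot be told apart.

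In ar21, 35 of the 53 genes (66%) had a negative log2 fold change against WT, against 48.9% of all 15591 loci tested. The median was -0.32 for the 53 genes and 0.01 for all loci. Both ar21 libraries lay below both WT libraries in 29 genes (54.7%), against 28.5% of all loci, and above them in 6 genes (11.3%), against 30.4%. By limma at an adjusted p under 0.05, 7 genes (13.2%) fell, where 6.03% of all loci were called lower. Of the 7, 5 were among the 12 genes with the highest mean and 2 among the other 41. In the same test 0 genes rose, where 8.76% of all loci were called higher. For the 0, 2 genes were higher at an unadjusted limma p under 0.05. edgeR and DESeq2 had 1 ar21 library, so neither could check the 0. DESeq2 also gave no adjusted p for 35 of the 53 genes. Without ar21 replicate 1 the count of genes that fell was 1, and without ar21 replicate 2 it was 2. The number of all loci called went down too, from 2305 to 522 and 827.

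In i4g1, 38 genes (71.7%) had a negative log2 fold change, against 48.9% of all loci. The median was -0.30, and 0.01 for all loci. Both i4g1 libraries lay below both WT libraries in 27 genes (50.9%), against 29.2% of all loci, and above them in 6 (11.3%), against 31%. By limma 9 genes (17%) fell, where 9.86% of all loci were called lower. Of the 9, 8 were among the 12 genes with the highest mean and 1 among the other 41. In the same test 2 genes (3.77%) rose, where 12.5% of all loci were called higher. Without i4g1 replicate 1 the count that fell was 5 and the median -0.16. Without i4g1 replicate 2 the median was -0.47. Both comparisons use the same 2 WT libraries, so the 6 genes that fell in both lines are not 2 independent observations.

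**Figure D2:**
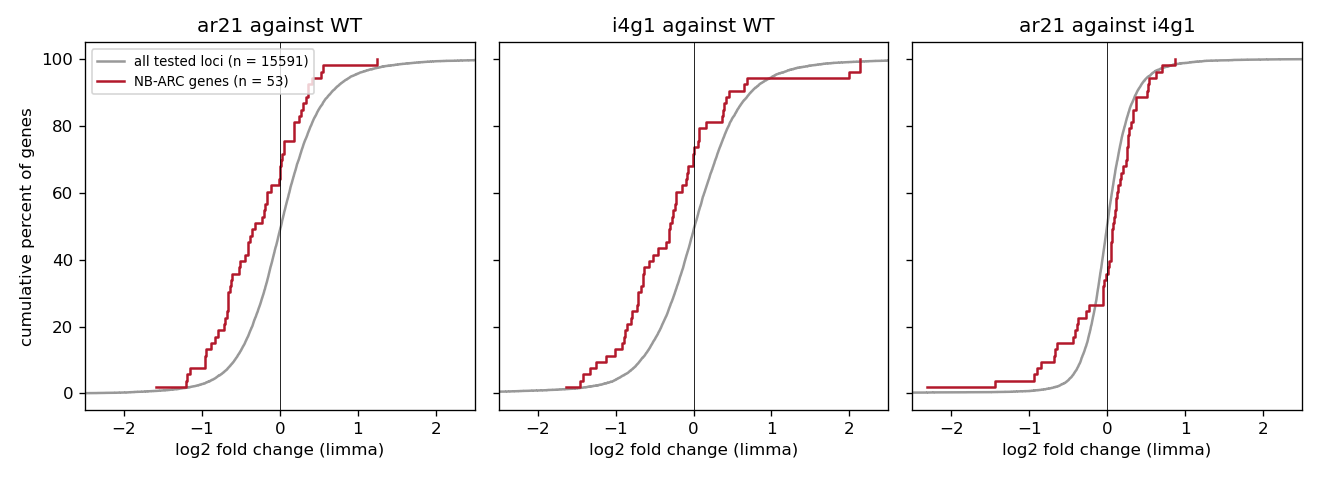
Cumulative percent of genes (vertical axis) by log2 fold change from limma (horizontal axis) for the 53 NB-ARC genes (red) and all 15591 loci tested (grey) in the 3 comparisons. Against WT the red line runs left of the grey one over most of its length, with medians of -0.32 in ar21 and -0.30 in i4g1 against 0.01 for all loci, and ends at the right with RPP8, AT1G58602 and RLM3 in i4g1.

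By class, 4 of the 30 TIR-NBS-LRR genes fell in ar21 and 6 in i4g1, with median log2 fold changes of -0.21 and -0.30 and none called higher. Of the 13 CC-NBS-LRR genes, 1 fell in ar21 (median -0.52), while in i4g1 1 fell and 1 rose (median -0.45). The 8 genes with no stated N-terminus had 2 that fell in ar21, and 1 that fell and 1 that rose in i4g1. Of the 2 TIR-NBS genes, AT4G23440 fell in i4g1. Of all loci, 6.03% were called lower in ar21 and 9.86% in i4g1, and 8.76% and 12.5% were called higher. The 1 CC-NBS-LRR gene of 13 that fell in each line is near those shares. With few genes per class, the counts do not set the classes apart.

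RPP1 lies at chr3:16090460-16096477 on the - strand. It had 335 and 344 normalised counts in WT, 216 and 218 in ar21, and 178 and 187 in i4g1. The 3 lines did not overlap, and replicates lay close together. Its log2 fold change was -0.64 ± 0.12 (SE) in ar21 (limma adjusted p = 0.00543) and -0.89 ± 0.12 in i4g1 (adjusted p = 0.000495). Without ar21 replicate 1 the adjusted p in ar21 was 0.0753, without ar21 replicate 2 it was 0.0554, and with edgeR 0.0537, while the fold change stayed between -0.66 and -0.62 with each library left out.

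AT3G44670, chr3:16216806-16221722 on the + strand, had 235 and 286 normalised counts in WT, 161 and 176 in ar21, and 106 and 111 in i4g1. Again no line overlapped another. The log2 fold change was -0.62 ± 0.15 in ar21 (limma adjusted p = 0.0168) and -1.25 ± 0.15 in i4g1 (adjusted p = 0.000208), the direct comparison of ar21 with i4g1 giving 0.63 ± 0.15 (adjusted p = 0.138). The call in ar21 was lost without WT replicate 2 (adjusted p = 0.0849), without ar21 replicate 1 (0.177) and without ar21 replicate 2 (0.0792). The third described copy, AT3G44630, which is 97.2% identical to RPP1 over 1697 coding bases, had 49.98 and 44.8 in WT, 42.2 and 38.1 in ar21, and 47.2 and 47.3 in i4g1, and did not pass the test. Summed over these 3 copies, so that reads assigned to any of them count, the level was 620.5 and 675 in WT, 419 and 433 in ar21, and 331 and 345 in i4g1, with no overlap between lines.

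RPP1 and AT3G44670 also share the sequence before their annotated starts. The 250 bases upstream of each, which overlap another annotated gene in both cases, are shown because both genes fell in both lines. They differ at 3 positions counted from the 5′ end of the window (C6G, C38G and C39T, RPP1 first) and are 98.8% identical.
RPP1, chr3:16096478-16096727, - strand: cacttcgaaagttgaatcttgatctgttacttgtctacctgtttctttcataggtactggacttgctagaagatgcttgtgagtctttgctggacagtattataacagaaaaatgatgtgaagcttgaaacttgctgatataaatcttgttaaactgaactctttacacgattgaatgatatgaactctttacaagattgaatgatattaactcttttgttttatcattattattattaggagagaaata
AT3G44670, chr3:16216556-16216805, + strand: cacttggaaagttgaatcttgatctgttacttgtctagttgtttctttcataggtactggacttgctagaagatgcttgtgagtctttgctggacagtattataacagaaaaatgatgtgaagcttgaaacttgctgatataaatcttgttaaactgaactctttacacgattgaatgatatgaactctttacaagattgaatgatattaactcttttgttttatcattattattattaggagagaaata
Neither window holds a W-box, the motif bound by WRKY factors of the defence response, searched as TTGACC or TTGACT on both strands. Of the 53 genes, 25 (47.2%) have one in that window, against 28.4% of 27443 protein-coding genes. Among the called genes, AT4G19510 has 2, and AT1G61310 and AT1G59780 have 1 each. Called genes without one, besides RPP1 and AT3G44670, are RPP8L3, AT5G22690, RPS6, AT5G40910, AT4G23440, RPP8 and AT1G58602. RLM3 has none either.

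RPP8L3 (chr5:13666524-13671200, + strand) showed the difference that held under every alternative tried. It had 151 and 196 normalised counts in WT, 83.4 and 71.0 in ar21, and 61.2 and 66.4 in i4g1, with both WT libraries above all mutant libraries. The log2 fold change was -1.15 ± 0.19 in ar21 (limma adjusted p = 0.00204) and -1.42 ± 0.19 in i4g1 (adjusted p = 0.000359). By pooled reads, 223 in i4g1 against 194 in WT, the ratio was 0.393 with an exact 95% interval of 0.322 to 0.478 that covers counting error only.

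AT5G22690, a TIR-NBS-LRR gene (chr5:7541072-7545256, + strand), had the largest fall among the called genes in both lines. It had 90.204 and 98.0 normalised counts in WT, 37.2 and 43.2 in ar21, and 32.3 and 35.1 in i4g1, so the groups did not overlap. Its log2 fold change was -1.21 ± 0.22 in ar21 (limma adjusted p = 0.00346) and -1.45 ± 0.22 in i4g1 (adjusted p = 0.000745). The call in ar21 was lost in 2 of 13 alternatives, among them leaving out ar21 replicate 1.

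AT1G61310, an LRR and NB-ARC gene by its annotation (chr1:22612998-22616373, - strand), had 52.4 and 50.4 normalised counts in WT, 24.1 and 27.8 in ar21, and 19.2 and 20.4 in i4g1. All mutant libraries lay well below both WT libraries. The log2 fold change was -0.96 ± 0.27 in ar21 (limma adjusted p = 0.0327), lost when any WT or ar21 library was left out (adjusted p up to 0.24), and -1.33 ± 0.27 in i4g1 (adjusted p = 0.00461). Its coding sequence is 93.7% identical to AT1G61180, which did not pass the test and had 23.2 and 14.0 in WT, 17.1 and 24.9 in ar21, and 24.5 and 25.6 in i4g1.

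AT4G19510, a TIR-NBS-LRR gene known as RPP2B, had 104 and 81.2 normalised counts in WT, 61.3 and 54.2 in ar21, and 53.3 and 60.7 in i4g1. WT lay above both mutants, which overlapped each other. The log2 fold changes of -0.66 ± 0.20 (limma adjusted p = 0.0491) and -0.68 ± 0.20 (adjusted p = 0.0329) were near the threshold, and the call in ar21 was lost with the rescaling without 18S rRNA (adjusted p = 0.057). Leaving out WT replicate 1 (adjusted p = 0.175 in ar21 and 0.136 in i4g1) or any 1 of the 4 mutant libraries (0.0548 to 0.258) ended the call in both lines.

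AT1G59780, an NB-ARC gene with no near copy, fell in ar21 and did not pass the test in i4g1. It had 42.7 and 39.2 normalised counts in WT, 15.1 and 19.8 in ar21, and 29.7 and 34.3 in i4g1, and no line overlapped another. The log2 fold change was -1.20 ± 0.29 in ar21 (limma adjusted p = 0.0163) and -0.35 ± 0.29 in i4g1 (adjusted p = 0.42). The difference between the lines, -0.85 ± 0.29, had an adjusted p of 0.377. Without ar21 replicate 1 the adjusted p in ar21 was 0.166, and without ar21 replicate 2 it was 0.0554.

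RPS6, AT5G40910 and AT4G23440 passed the test in i4g1 and not in ar21. RPS6, a TIR receptor for a Pseudomonas effector, had 70.7 and 81.2 normalised counts in WT, 64.3 and 50.5 in ar21, and 31.5 and 49.5 in i4g1. Its log2 fold change in i4g1 was -0.92 ± 0.25 (limma adjusted p = 0.0214, and 0.174 without i4g1 replicate 1 or 0.0847 without WT replicate 2). AT4G23440 had 105 and 95.2 in WT, 77.4 and 72.5 in ar21, and 48.1 and 69.0 in i4g1. Its i4g1 libraries were both below WT but far apart, with a log2 fold change of -0.78 ± 0.21 (limma adjusted p = 0.0187, and 0.156 without i4g1 replicate 1 or 0.0646 without WT replicate 1). AT5G40910 had 108 and 115 in WT, 68.3 and 71.7 in ar21, and 50.7 and 89.0 in i4g1, with log2 fold changes of -0.67 ± 0.24 (limma adjusted p = 0.081) and -0.72 ± 0.24 (adjusted p = 0.0465). Without i4g1 replicate 1 the i4g1 value of AT5G40910 was -0.32 (adjusted p = 0.376), without i4g1 replicate 2 it was -1.12 (0.00786), and the call was lost in 9 of 13 alternatives, among them leaving out either WT or either ar21 library (0.0769 to 0.134), edgeR (0.111) and DESeq2 (0.334). In none of these 3 genes did ar21 and i4g1 differ at an adjusted p under 0.05.

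**Figure D3:**
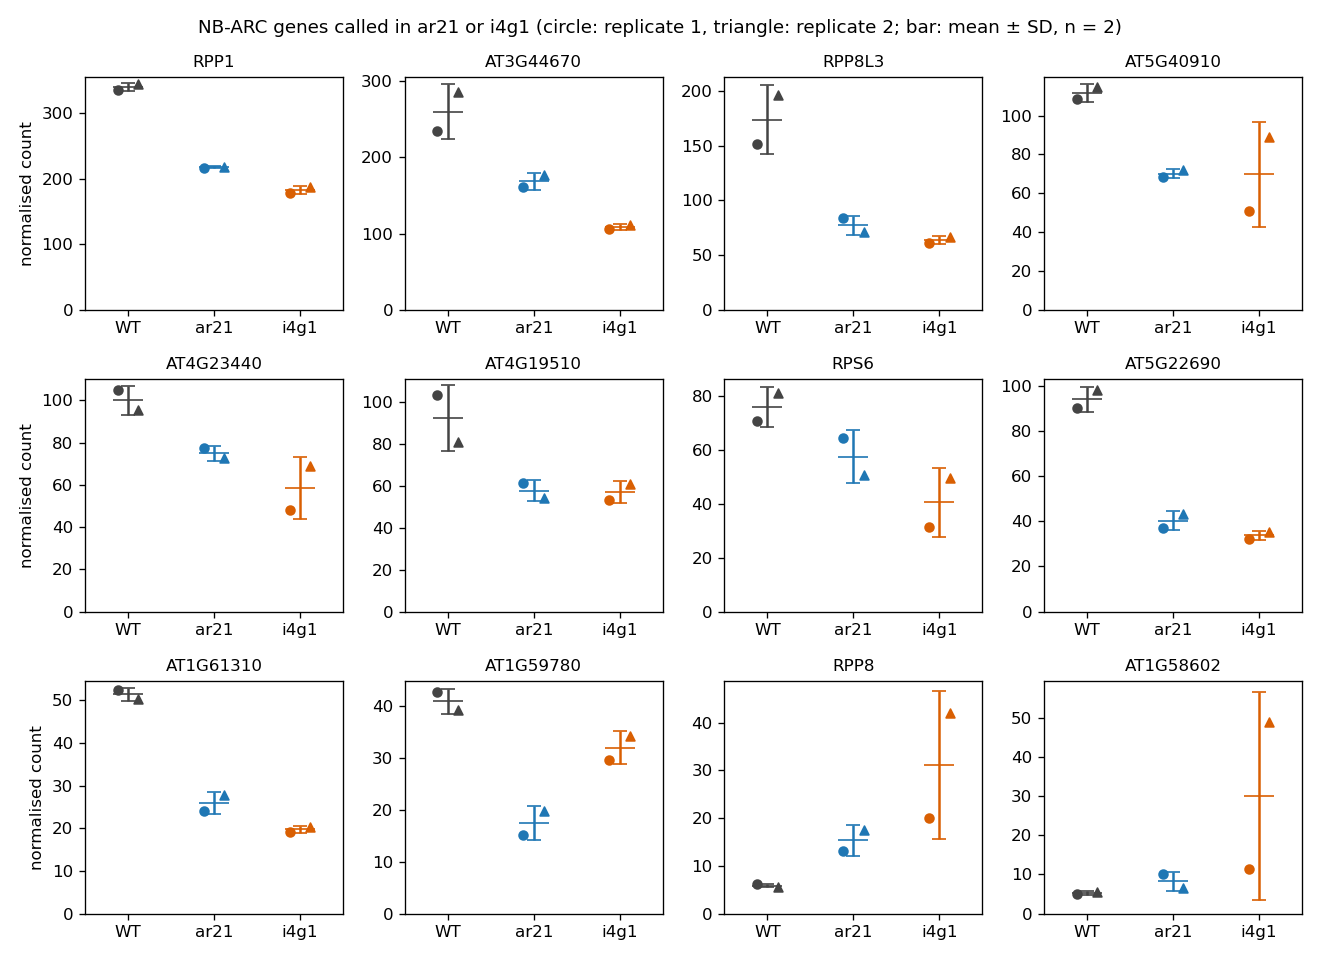
Normalised counts of the 12 NB-ARC genes that passed limma's test in ar21 or i4g1, by line (circle: replicate 1, triangle: replicate 2, bars: mean ± SD, n = 2, vertical axes from 0). In the 10 genes other than RPP8 and AT1G58602 both WT libraries lie above the i4g1 libraries. RPP8 and AT1G58602 are the genes that rose in i4g1, with i4g1 replicate 2 above replicate 1.

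RPP8 and AT1G58602 rose in i4g1. RPP8 is a CC receptor known for resistance to downy mildew, at chr5:17462547-17467448 on the - strand. It had 6.10 and 5.60 normalised counts in WT, 13.1 and 17.6 in ar21, and 20.1 and 42.1 in i4g1. The lines did not overlap, in the order WT, ar21, i4g1. Its log2 fold change was 2.14 ± 0.45 in i4g1 (limma adjusted p = 0.00557) and 1.24 ± 0.45 in ar21 (adjusted p = 0.084). The call in i4g1 was lost in 2 of 13 alternatives. The WT level rests on 7 reads, 5 and 2, against 23 and 97 in i4g1, a ratio of 5.85 with an exact 95% interval of 2.75 to 14.9 for counting error only. Without i4g1 replicate 2 the log2 fold change was 1.62 and the adjusted p 0.0802.

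Within the RPP8 family, RPP8L3 fell in both lines while RPP8 rose in i4g1. RPP8L4, the closest copy of RPP8, had 53.6 and 50.4 normalised counts in WT, 79.4 and 71.7 in ar21, and 55.1 and 82.4 in i4g1, and RPP8L2 had 7.31 and 11.2, 12.1 and 10.2, and 12.2 and 7.38. Neither passed the test (limma adjusted p = 0.137 and 0.764 in ar21, 0.266 and 0.943 in i4g1). The 4 members together had 218 and 263 in WT, 188 and 171 in ar21, and 149 and 198 in i4g1. The sum was below WT in all 4 mutant libraries, as was RPP8L3.

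AT1G58602, known as RPP7 and also a downy mildew receptor, spans chr1:21746354-21766048 on the + strand. It had 4.88 and 5.60 normalised counts in WT, 10.05 and 6.59 in ar21, and 11.4 and 49.0 in i4g1. Only i4g1 replicate 2 stood far from the rest. With means of 5.24 in WT, 8.32 in ar21 and 30.2 in i4g1, AT1G58602 passed the limit of 10 only through i4g1. The log2 fold change in i4g1 was 2.00 ± 0.62 (limma adjusted p = 0.0371) and in ar21 0.56 ± 0.62 (adjusted p = 0.597). Reads were 4 and 2 in WT against 13 and 113 in i4g1, and without i4g1 replicate 2 the log2 fold change was 0.99 and the adjusted p 0.383. The call was also lost when any one WT or ar21 library was left out, and with the rescaling without 18S rRNA (adjusted p = 0.0552).

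RLM3, a TIR-domain gene known for resistance to fungal necrotrophs (chr4:9558571-9565569, + strand), varied the most between libraries. It had 6.10 and 5.60 normalised counts in WT, 5.02 and 5.12 in ar21, and 9.61 and 84.6 in i4g1. In i4g1 195 of its 206 reads came from replicate 2. With means of 5.85 in WT, 5.07 in ar21 and 47.1 in i4g1, RLM3 passed the limit of 10 only through i4g1. The log2 fold change was 2.14 ± 0.77 in i4g1 (limma adjusted p = 0.0648) and was not called with the deposited scaling, while the adjusted p was 0.0444 with edgeR, 0.0482 with the replicate block and 0.216 with DESeq2. Without i4g1 replicate 1 the log2 fold change was 3.65 (limma adjusted p = 0.00254), and without i4g1 replicate 2 it was 0.63 (0.621).

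i4g1 replicate 2 stood apart from replicate 1 across the NB-ARC genes. In i4g1, 43 of the 53 genes were higher in replicate 2, against 48.3% of all loci, with a median log2 difference of 0.26 (all loci -0.01). In WT 28 of 53 and in ar21 26 of 53 were higher in replicate 2. The median absolute log2 difference between replicates was 0.39 for the NB-ARC genes in i4g1 and 0.21 for all loci, and 0.20 and 0.24 in WT, and 0.23 and 0.17 in ar21. Of the 53 genes, 13 (24.5%) had their highest value in i4g1 replicate 2, against 14.8% of all loci, and 1 (1.89%) in i4g1 replicate 1, against 18.6%. The highest value lay in WT replicate 1 in 15 genes (28.3%, against 21.3%), in WT replicate 2 in 16 (30.2%, against 21.6%), in ar21 replicate 1 in 5 (9.43%, against 14.5%) and in ar21 replicate 2 in 3 (5.66%, against 9.29%).

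Some leaf markers and most salicylic acid genes were also highest in i4g1 replicate 2. Of 8 genes of leaf or silique wall tissue outside the seed, 5 (TGG2, ESM1, LOX2, CA1 and RBCS1A) had both i4g1 libraries above all others. In i4g1 replicate 2, 4 were highest, against 14.8% of all loci tested, and 5 were at least 2 times higher there than in i4g1 replicate 1. The 2 other shares were not computed for all loci. The filter on low values was passed by 6 of the 8, and limma called 5 higher in i4g1, where 12.5% of all loci were called higher. The myrosinase TGG1 was highest in WT replicate 1 (1164), as was VSP1, while VSP2 had 12.2 and 5.64 in i4g1 and RBCS1A 11862 and 11474. TGG2, a myrosinase, had 23.2 and 14.0 normalised counts in WT, 6.03 and 9.52 in ar21, and 33.2 and 124 in i4g1. LOX2, a chloroplast enzyme of jasmonate synthesis, had 39.0 and 14.0, 12.1 and 19.0, and 107 and 391. Summed over the 8 genes, the level was 6124 and 6802 in WT, 10261 and 9457 in ar21, and 13149 and 13966 in i4g1, with VSP1 at 0 in WT replicate 2. Without RBCS1A, the small Rubisco subunit, the sum was 1324 and 1075, 783 and 780, and 1287 and 2492.

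Of 10 genes of the salicylic acid response, 5 had both i4g1 libraries above all others, a share not computed for all loci. In i4g1 replicate 2, 8 were highest, against 14.8% of all loci tested, while ALD1 and NPR1 were highest in WT replicate 2. Only 5 of the 10 passed the filter on low values. Limma called 3 of those 5 higher in i4g1, where 12.5% of all loci were called higher. PR1, the usual reporter of that response, had 98.7 and 53.2 normalised counts in WT, 38.2 and 22.0 in ar21, and 308 and 1218 in i4g1. The sum of the 10 genes was 226 and 190 in WT, 179 and 106 in ar21, and 564 and 2131 in i4g1. SARD1 was at 0 in both WT libraries, FMO1 in both WT libraries, ar21 replicate 1 and i4g1 replicate 1, CBP60g in WT replicate 2 and ar21 replicate 2, and WRKY70 in WT replicate 1. In both ar21 libraries the sum of these 10 genes lay below both WT sums. The part of leaf tissue or of a salicylic acid response in the levels of RPP8, AT1G58602 and RLM3 was not tested.

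**Figure D4:**
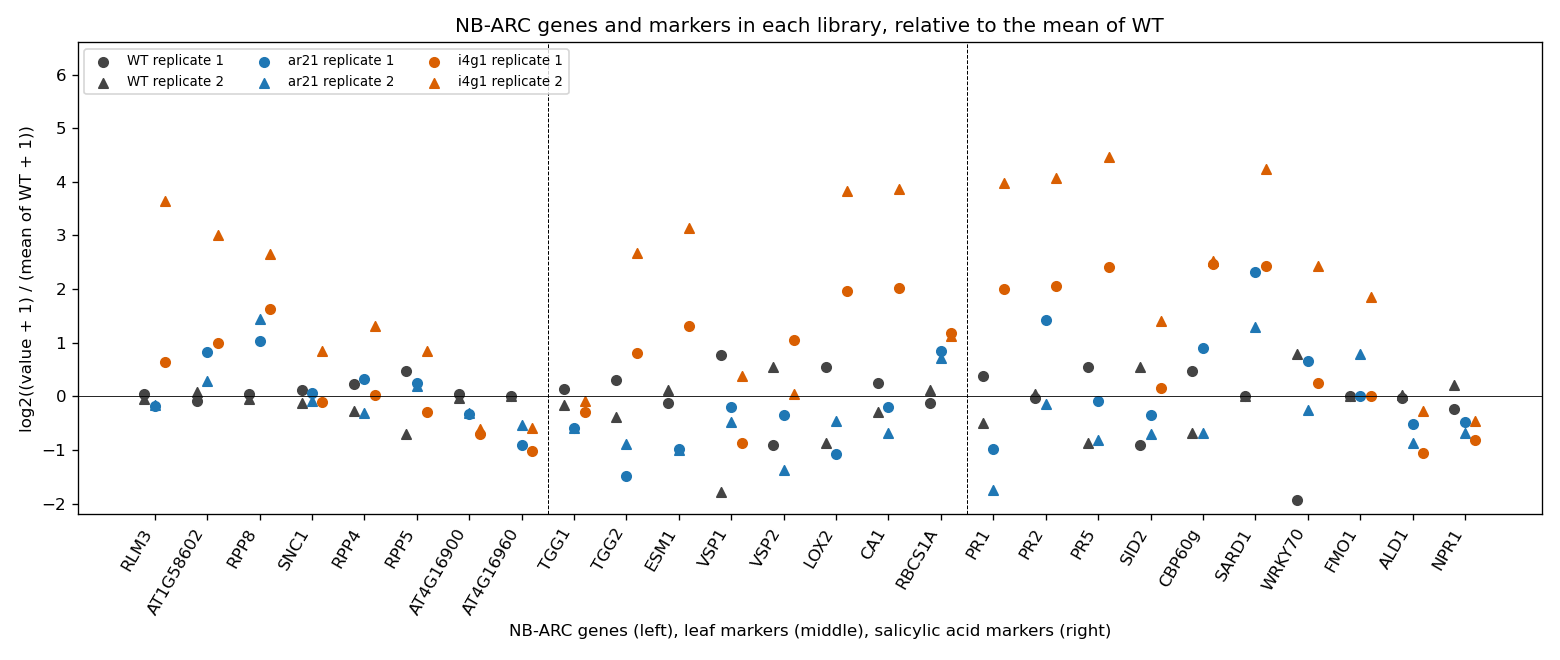
Level of 8 NB-ARC genes (left) with the 8 leaf markers (middle) and the 10 salicylic acid genes (right) in each library, as the log2 ratio of value plus 1 to the WT mean of value plus 1. Circles are replicate 1 and triangles replicate 2. The triangle of i4g1 is the highest point in RLM3, AT1G58602, RPP8, SNC1, RPP4 and RPP5, in 4 of the 8 leaf markers and in 8 of the 10 salicylic acid genes, and not in AT4G16900 and AT4G16960.

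The RPP5 region (chr4:9488466-9565569, 77.1 kb) is a cluster known for SNC1 and the downy mildew receptors RPP4 and RPP5. Its 6 described genes had log2 fold changes in i4g1 from -0.81 (AT4G16960) to 2.14 (RLM3). In either line 0 of the 6 passed limma's test, where 14.8% of all loci passed in ar21 and 22.4% in i4g1. SNC1 had 86.5 and 72.8 normalised counts in WT, 83.4 and 75.4 in ar21, and 74.3 and 143 in i4g1. RPP4 had 12.2 and 8.40, 13.1 and 8.05, and 10.5 and 26.9. AT4G16900 ran the other way, with 56.1 and 53.2 in WT, 43.2 and 43.9 in ar21, and 33.2 and 35.6 in i4g1 (limma adjusted p = 0.056 in i4g1). SNC1 and RPP4 were highest in i4g1 replicate 2. Their other 5 libraries ran from 72.8 to 86.5 in SNC1 and from 8.05 to 13.1 in RPP4. RPP5 was also highest there but varied more, with 39.0 and 16.8 in WT, 33.2 and 32.2 in ar21, and 22.7 and 50.8 in i4g1.

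Among helper receptors, which pass the signal on from sensor receptors, AT5G66900 (NRG1.1) had 26.8 and 16.8 normalised counts in WT, 5.02 and 8.05 in ar21, and 3.50 and 10.4 in i4g1. Both WT libraries were above all mutant libraries, with log2 fold changes of -1.59 ± 0.57 (limma adjusted p = 0.081) and -1.64 ± 0.57 (adjusted p = 0.058), which did not pass. With means of 21.8 in WT, 6.54 in ar21 and 6.95 in i4g1, AT5G66900 passed the limit of 10 only through WT. Its neighbour AT5G66910 (NRG1.2), 82.4% identical, had 21.9 and 25.2, 33.2 and 27.8, and 14.0 and 18.7. ADR1 had 70.7 and 44.8 in WT, 44.2 and 41.7 in ar21, and 41.9 and 30.4 in i4g1, with WT replicate 2 close to ar21 replicate 1 (limma, adjusted p = 0.386 for ar21 and 0.114 for i4g1). The pair RPS4 and RRS1, TIR receptors that act as one complex, showed no call: RPS4 had 21.9 and 22.4, 28.1 and 22.7, and 15.7 and 26.9, and RRS1 31.7 and 30.8, 28.1 and 49.0, and 45.4 and 54.2. LAZ5 lay at 17.1 and 22.4 in WT and between 9.61 and 11.7 in the mutants, and RPP13 at 17.1 and 19.6 in WT, 11.1 and 10.98 in ar21, and 15.7 and 21.3 in i4g1, neither passing the test.

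In the direct comparison of ar21 with i4g1, 0 of the 53 genes passed limma's test, where 0.282% of all loci did. At an unadjusted limma p under 0.05 there were 6. edgeR and DESeq2 had 1 ar21 library here too and could not check the 0. The median log2 difference was 0.08, and -0.08 without i4g1 replicate 1. Libraries did not overlap in 13 genes with ar21 higher (24.5%, against 21.5% of all loci) and in 10 with ar21 lower (18.9%, against 20.8%).

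Receptor transcripts of the CC class are known targets of miR472, which pairs with the P-loop sequence and, with RDR6, sets off secondary small RNAs. It is shown because its pairing site is the P-loop itself. The mature miR472-3p of RefSeq TAIR10.1 (chr1:4182143-4182164, - strand, 22 bases) has its seed in capitals, and in the sites below it, read from the coding sequences, capitals are bases that match its reverse complement.
miR472-3p: uUUUUCCUacuccgcccauacc
AT5G43740 site: GGTATGGGgGGAGTAGGAAAAA
AT5G43730 site: GGTATGGGgGGAaTAGGAAAAA
AT5G63020 site: GGTATGGGtGGAGTAGGtAAAA
AT1G61310 site: GGTATGGGtGGtGTAGGcAAAA
A site with at most 3 mismatches was found in 21 of 27435 coding sequences, of which 19 match the NB-ARC rule and 7 are described here (the 4 above, AT1G61180, AT1G61190 and AT1G63360). In these 7 the site starts at the first base of the P-loop. AT5G43740, with the fewest mismatches, had 19.5 and 33.6 normalised counts in WT, 13.1 and 13.9 in ar21, and 21.8 and 33.0 in i4g1, both ar21 libraries being below all others (limma adjusted p = 0.133 in ar21). AT5G43730 had 73.1 and 50.4, 47.2 and 37.3, and 39.3 and 38.2, with WT above both mutants (limma adjusted p = 0.19 and 0.0911). Of the 7, AT1G61310 fell in both lines and the others did not pass in either. Of all loci, 6.03% were called lower in ar21 and 9.86% in i4g1. The sequence match is a description, and small RNAs were not measured here.

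Genes that act with the receptors were described beside them, from a list of 20 partners. Of these, 19 had a row, BON1 was not analysed here, and 15 passed the filter on low values. In ar21 1 fell and 0 rose (median log2 fold change -0.09), and in i4g1 1 fell and 2 rose (median -0.16), against 6.03% lower and 8.76% higher in ar21 and 9.86% lower and 12.5% higher in i4g1 of all loci. CPR1 (AT4G12560, named CPR30 in the table), the F-box protein that marks SNC1 and RPS2 for degradation, had 244 and 246 normalised counts in WT, 159.8 and 165 in ar21, and 161 and 165 in i4g1. The mutants lay together well below WT, with log2 fold changes of -0.59 ± 0.13 in both (limma adjusted p = 0.0113 and 0.00804). Without ar21 replicate 1 the adjusted p in ar21 was 0.127, and without ar21 replicate 2 it was 0.0805.

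SGT1A and SGT1B, co-chaperones of HSP90, rose in i4g1. SGT1B had 249 and 241 normalised counts in WT, 272 and 312 in ar21, and 364 and 329 in i4g1 (log2 fold change 0.50 in i4g1, limma adjusted p = 0.0172, and 0.107 without i4g1 replicate 1 or 0.0567 without WT replicate 2). SGT1A had 42.7 and 39.2, 53.3 and 41.0, and 67.3 and 72.9 (0.76, limma adjusted p = 0.0294). That call was lost without WT replicate 2, ar21 replicate 1 or either i4g1 library, with adjusted p up to 0.137, and with the rescaling without 18S rRNA (0.0563). In both genes i4g1 lay above all other libraries. RAR1, another HSP90 co-chaperone, had 56.1 and 61.6 in WT, 57.3 and 60.02 in ar21, and 44.6 and 55.1 in i4g1, lowest in i4g1 (log2 fold change -0.24, limma adjusted p = 0.451). RAR1, HSP90.1, HSP90.2, RIN4, PBS1, SRFR1, RDR6, SGS3 and DCL4 did not pass in either line. The lipase-like partners EDS1, PAD4 and SAG101 were below the filter, and PAD4 had 3.66 and 5.60 in WT, 2.01 and 0.732 in ar21, and 10.5 and 21.7 in i4g1, while EDS1 stayed at or below 6.94 in every library.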

How the data were processed

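The deposited table holds a signal made by the authors for every locus in every library: reads over a library-wide size factor, called the normalised count here. The submitters' processing notes name DESeq2 1.12.4, HTSeq 0.6.0, StringTie 1.0.3, STAR 2.4.0j and the build TAIR10, without roles or parameters. In 5 libraries every value was a whole multiple of 1 step within 0.001, so whole reads were recovered. In ar21 replicate 1 the step lay too near 1, and its values divided by the step are printed as reads but entered no count test.

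The test was limma 3.58.1 (R 4.3.3) with an intensity trend on log2(value + 1), all 6 libraries in 1 fit (3 residual degrees of freedom), a mean of at least 10 (15591 loci), and two-sided Benjamini-Hochberg adjusted p-values over all loci with a threshold of 0.05. Fold changes are on that log2 scale, which understates those of low genes. P-values set the difference between lines against a spread shared by the 3 lines and drawn toward that of loci of similar level. The prior had 9.07 degrees of freedom, more than the 3 residual ones. The replicates behind that spread were 2 pools of seeds per line. edgeR 4.0.16 and DESeq2 1.42.0 on the recovered reads of 5 libraries were alternatives, among 13. On data simulated for ar21 against WT (15591 genes), limma recovered 33% of 2-fold and 93% of 4-fold changes.

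Members and lists were chosen with earlier results of these data known. The named genes are called members, the 10 highest per kb, described members among well-studied receptors, and those whose libraries differ by over 8-fold at a maximum of at least 50. Same-numbered replicates did not deviate together (correlations of -0.0803, -0.0277 and 0.125), so they were not paired. Coordinates and sequences are from RefSeq TAIR10.1, in which all 53 genes were found. Identities are from blastn 2.17.0.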

Additional observations from a re-analysis of the deposited data

How the results depend on the processing

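The count of NB-ARC genes that fell in ar21 (7) was 2 with edgeR, 1 with DESeq2, and 1 to 7 with each library left out. edgeR and DESeq2 used 1 ar21 library, as did the fits without an ar21 replicate. In those fits fewer of all loci were called too, both in ar21 and in i4g1. The counts of NB-ARC genes therefore cannot be read apart from the number of all loci called. DESeq2 gave no adjusted p for 35 of the 53 genes in ar21 and 15 in i4g1. The count that fell in i4g1 (9) was 4 with DESeq2 and 5 to 10 with each library left out. The count that rose in i4g1 (2) was 1 with the rescaling without 18S rRNA, 1 without the filter on low values, 1 with only the 2 lines compared in the fit, 0 with DESeq2 (3 genes at an unadjusted p under 0.05), and 0 to 4 with each library left out, 0 without i4g1 replicate 2 and 4 without i4g1 replicate 1. Leaving out 1 library moved the median in i4g1 between -0.471 and -0.156, the median of ar21 against i4g1 between -0.0769 and 0.19, and the count lower in ar21 than i4g1 from 0 to 1. The cause was not tested. With the replicate number as a block, a pairing the data did not bear out, 6 genes fell in ar21, 9 fell in i4g1 and 3 rose in i4g1. Of single genes, SGT1A in ar21, uncalled at 0.188, was -0.0234 with edgeR and -0.017 with DESeq2, and no other of the 32 gene results recomputed changed direction. RPP8L3 kept its calls in both lines under all 13 alternatives, as did RPP1, AT3G44670 and AT5G22690 in i4g1. The losses named above for other calls are examples. Calls in ar21 were lost in 4 alternatives for RPP1 and CPR1, 5 for AT3G44670 and 2 for AT5G22690. They were lost in 3 for AT1G59780, 6 for AT1G61310 and 11 for AT4G19510. In i4g1 the losses were 2 for RPP8, 4 for RPS6, 3 for AT4G23440 and SGT1B, and 1 for AT1G61310 and CPR1. They were 8 for AT1G58602, SGT1A and AT4G19510. Depth limits RPP8, AT1G58602 and RLM3, which had 6 or 7 reads in WT.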

Other observations

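The 79 NB-ARC genes below the limit on the mean were most often highest in i4g1 replicate 2. That library held the highest value of 34 of them (43.0%), against 22.8% of the 7810 loci of such levels, while WT replicate 1 held 17, WT replicate 2 12, i4g1 replicate 1 8, ar21 replicate 2 5 and ar21 replicate 1 3. Their summed level was 336 and 280.0 normalised counts in WT, 219 and 212 in ar21, and 222 and 433 in i4g1. AT1G63880, a TIR-NBS-LRR gene, had 4.88 and 5.60 in WT, 2.01 and 3.66 in ar21, and 9.61 and 29.1 in i4g1.

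AT1G12290 ran the other way, with 26.8 and 16.8 normalised counts in WT, 3.01 and 3.66 in ar21, and 2.62 and 3.90 in i4g1. In the fit without a filter on low values it was lower in ar21 (log2 fold change -2.36, limma adjusted p = 0.0272) and in i4g1 (-2.40, adjusted p = 0.0173). In that fit, of the 79 genes, AT1G12290 was the 1 called in ar21, and AT4G11340 (-2.28, adjusted p = 0.043) was the other of the 2 called in i4g1. Both were named after their values were seen.

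Some receptors lack the words of the rule in their annotation. Of these, ADR1-L1 had 124 and 112 normalised counts in WT, 102 and 121 in ar21, and 97.9 and 119 in i4g1, and ADR1-L2 146 and 109, 115 and 146, and 108 and 138. These helper receptors of the ADR1 family overlapped between lines. TAO1 had 62.2 and 50.4 in WT, 39.2 and 48.3 in ar21, and 20.1 and 40.8 in i4g1. ZAR1 had 36.6 and 28.0025, 24.1 and 41.0, and 35.8 and 53.8, with overlapping lines.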
